A study of Homo sapiens with 19 samples.

Results

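SLC5A3, the sodium/myo-inositol cotransporter, and 5 genes that act with it in handling organic osmolytes were followed through both experiments. The other members were SLC6A6, the taurine transporter, SLC6A12, the betaine/GABA transporter, SLC38A2, a neutral amino acid transporter, AKR1B1, the aldose reductase that makes sorbitol from glucose, and NFAT5, the transcription factor of the tonicity response. All 6 symbols had a row in both tables, out of 34825 gene symbols in each. SLC5A3 was chosen by its normalized counts, which differed between the 2 siRNAs against INO80, and the other members for their function, with earlier results of these data known. The values of SLC5A3 in that experiment are therefore a description, given with no test.

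Cells that face a hypertonic medium first take up salt and then exchange it for small neutral solutes, the compatible osmolytes, which hold water without disturbing proteins. Myo-inositol, taurine, betaine and amino acids enter through sodium-coupled transporters, and sorbitol is made inside the cell. NFAT5, also called TonEBP, binds tonicity-responsive enhancers (TonE) and raises transcription of SLC5A3, SLC6A6, SLC6A12 and AKR1B1 under hypertonic stress. Hepatocytes also use these osmolytes to regulate their volume.

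The libraries were stranded mRNA-seq of HepG2, an established human liver cancer cell line, harvested 72 h after transfection with 50 nM siRNA. In the INO80 experiment, cells received the control siRNA NTG, siINO80#1 or siINO80#2, with 3 libraries each, lettered A, B and C. In the drug experiment, cells had 1 µM EPZ-6438, an inhibitor of the histone methyltransferase EZH2, or DMSO labelled at the same 1 µM, from 3 days before transfection with NTG or siMCRS1. INO80 is the ATPase of the INO80 chromatin remodeling complex and MCRS1 is one of its subunits, also found in other complexes. The groups were DMSO NTG (2 libraries, numbered 1 and 3), DMSO siMCRS1 (3 libraries), EPZ-6438 NTG (3 libraries) and EPZ-6438 siMCRS1 (2 libraries, A and B). MCRS1 was targeted with a single siRNA and all libraries came from 1 cell line. The sources do not say whether replicates were separate cultures, so p-values measure the spread between these libraries, which may be technical.

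Libraries of the INO80 experiment held 17093574 to 25369547 reads and those of the drug experiment 26038505 to 47397233, so 3 reads were worth at most 3.58 and 4.30 normalized counts. All members lay above this in every library. INO80 fell with siINO80#1 by 1.05 and with siINO80#2 by 1.46 on the log2 scale (limma adjusted p = 5.10e-06 and 3.59e-07), and no library with either siRNA reached the NTG libraries. MCRS1 fell by 3.66 in both DMSO and EPZ-6438 (limma adjusted p = 5.94e-06 and 3.49e-06). Liver transcripts were abundant, with ALB (albumin) averaging between 113494 and 265134 normalized counts in a group. The T cell gene CD3E was at 0 in all 9 libraries of the INO80 experiment. It was at 0 in all DMSO libraries of the drug experiment, but not in all EPZ-6438 libraries. The 4 leukocyte markers, CD3E among them, still summed to 37000 to 40982 normalized counts in NTG of the INO80 experiment, mostly from LYZ (lysozyme). Of 10 liver markers, 1 rose and 1 fell with siINO80#1, where 20.7% of all genes tested rose and 20.8% fell. With siINO80#2, 1 rose, APOA2 (an apolipoprotein) by 0.42, and 5 fell, HNF4A among them by 1.02, against 26.6% and 28.4% of all genes. In bulk RNA, fewer cells of a kind and less RNA per cell cannot be told apart.

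SLC5A3 lies on chromosome 21 (RefSeq GRCh38.p14, 34073578 to 34106260, plus strand), and MRPS6, which encodes a protein of the small mitochondrial ribosome subunit, begins at the same base and runs on to 34143030 on the same strand. The promoter windows of both genes in RefSeq, from 250 bases before the start to 50 after it, agreed at 300 of 300 positions. The 250 bases before the common start are printed because the results below turn on these 2 genes, annotated from 1 start, moving together or apart. Capitals mark the GC box GGGCGG or its reverse complement CCGCCC, and neighbouring copies share a base in 2 places.
SLC5A3 and MRPS6, chr21:34073328-34073577, plus strand, GRCh38.p14: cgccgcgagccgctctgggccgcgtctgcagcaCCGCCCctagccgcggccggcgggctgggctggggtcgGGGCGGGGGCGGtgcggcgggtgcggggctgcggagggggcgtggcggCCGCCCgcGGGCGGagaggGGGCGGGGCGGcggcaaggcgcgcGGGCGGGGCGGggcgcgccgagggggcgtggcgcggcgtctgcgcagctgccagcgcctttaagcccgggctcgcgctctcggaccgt

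The stretch held 9 GC boxes, 7 on the plus strand and 2 on the minus strand, between 217 and 83 bases before the start. As many or more were found in 0.419% of 35116 RefSeq promoter windows, while 45.0% held at least 1. G and C made up 82% of the full window, against a median of 58.7% over all windows, and 1.28% of windows were as rich. On either strand, the window had no match to the YY1 motif AANATGGC (present in 6.58% of windows), to CCAAT (34.6%), to TGATGNAA, the composite element read by C/EBP and ATF factors (3.62%), or to the TonE consensus (4.92%). YY1 is a DNA-binding subunit of the INO80 complex. SLC38A2 had 4 GC boxes and 1 TonE match in its window, which 9.06% and 4.92% of windows equalled, and the 2 windows of AKR1B1 held 2 and 1 GC boxes and no TonE match. A match of letters is a description of the window and says nothing of a factor being bound there.

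The transcripts of the pair part after the first exon. In the GENCODE v44 annotation lifted to GRCh37, both canonical transcripts begin with the same exon of 168 bases. SLC5A3 then has 1 further exon of 11398 bases, which carries its whole coding sequence of 2154 bases, and its transcript of 11566 bases is among the longest, with 0.809% of genes as long. The MRPS6 transcript has 931 bases. Of the 31-base words in SLC5A3, 1.64% also occurred in MRPS6, and of those in MRPS6, 15.3% occurred in SLC5A3 and 29.3% in a noncoding RNA annotated across the locus. SLC5A3 counts therefore rested mostly on sequence of its own, and MRPS6 counts less so. How the counting shared such reads was not given in the sources used here.

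SLC5A3 was higher with either INO80 siRNA than with NTG, and far higher with siINO80#2. Its normalized counts were 1926, 1796 and 1908 in NTG libraries A, B and C. With siINO80#1 they were 2975, 2483 and 3205, and with siINO80#2 they were 12257, 11148 and 11740.1. The order was NTG, siINO80#1, siINO80#2, and no library of 1 group overlapped another group. The group means were 1877 ± 70.2, 2888 ± 369 and 11715 ± 555 (SD, n = 3), so that the ratio to NTG was 1.54 with siINO80#1 and 6.24 with siINO80#2, and the ratio of siINO80#2 to siINO80#1 was 4.06. The remaining INO80 transcript differed less between the siRNAs, at 48.1% of NTG with siINO80#1 and 36.4% with siINO80#2.

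MRPS6 moved in the same order but by less at the top. It had 359, 387 and 367 normalized counts in NTG, 619.99, 624 and 696 with siINO80#1 and 1292, 1175 and 1257 with siINO80#2. The groups did not overlap. Since its annotated transcript shares the start and first exon of SLC5A3, and the gene was brought in beside SLC5A3, these values are also given with no test. The ratio to NTG was 1.74 with siINO80#1, slightly above that of SLC5A3, and 3.35 with siINO80#2, well below it. Per library, SLC5A3 had 4.64 to 5.36 counts for each count of MRPS6 in NTG, 3.98 to 4.80 with siINO80#1 and 9.34 to 9.49 with siINO80#2. The ratio of the pair thus stood apart with siINO80#2 in all 3 libraries, while the NTG and siINO80#1 ranges overlapped.

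**Figure D1:**
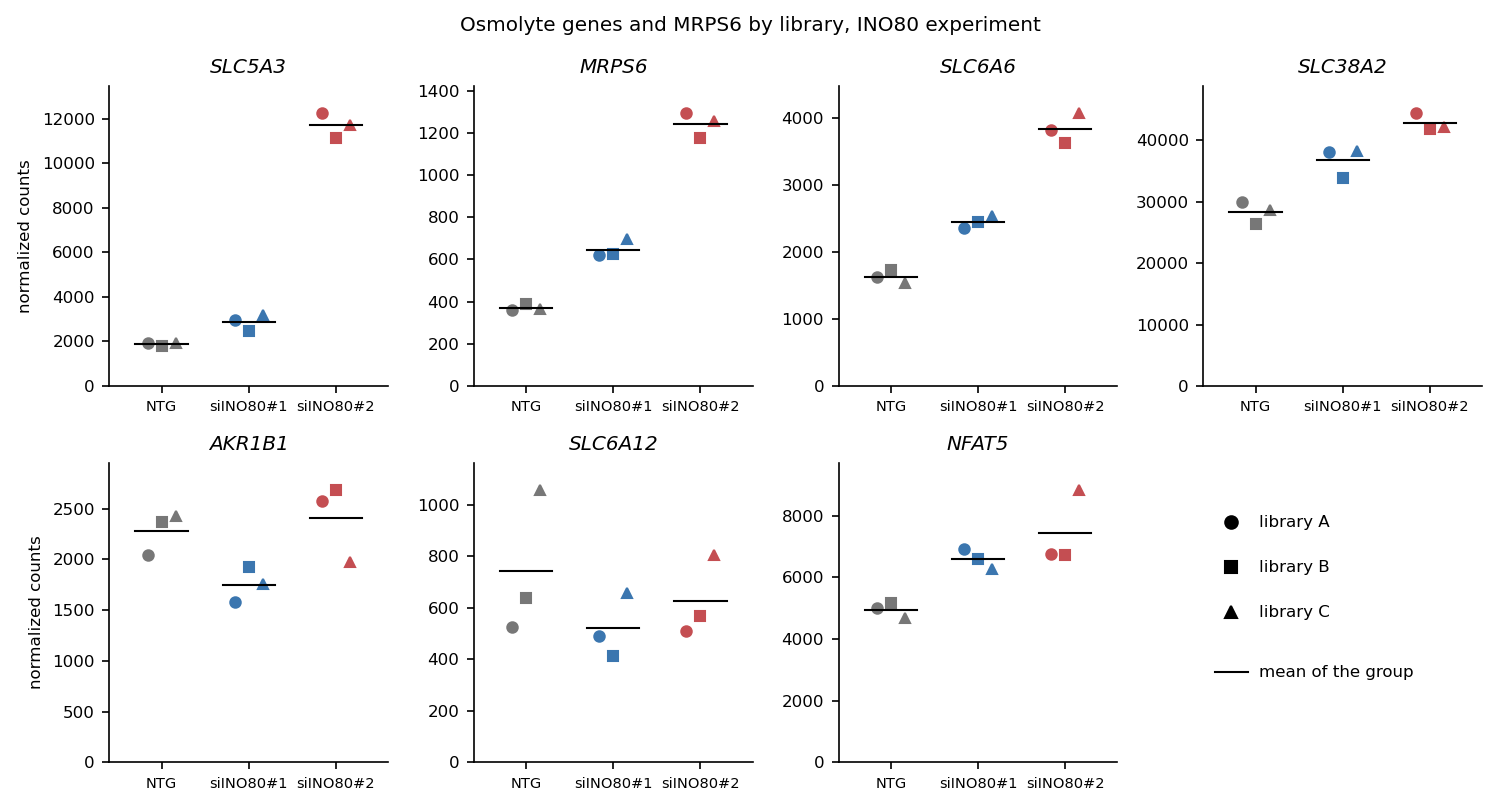
Normalized counts (axes from 0) of the 6 osmolyte genes and MRPS6 in each library of the INO80 experiment, with the mean of each group as a bar. SLC5A3, MRPS6 and SLC6A6 step up from NTG to siINO80#1 and again to siINO80#2 with no overlap, SLC5A3 to between 11148 and 12257, while AKR1B1 and SLC6A12 do not follow that order.

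SLC6A6, which imports taurine, rose with both siRNAs. It had 1622, 1733 and 1541 normalized counts in NTG, 2358, 2442 and 2544 with siINO80#1 and 3829, 3622 and 4072 with siINO80#2. The 3 groups were fully apart and the steps were large beside the spread within them. The rise over NTG was 0.59 (SE 0.07) on the log2 scale with siINO80#1 (limma adjusted p = 0.000106) and 1.23 (SE 0.07) with siINO80#2 (limma adjusted p = 4.76e-07). Between the siRNAs, the contrast that chose SLC5A3, SLC6A6 was 1.57 times as high with siINO80#2, a description with no test.

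SLC38A2, a sodium-coupled carrier of alanine, glutamine and other neutral amino acids, was the most abundant member per length of transcript. It averaged 5909 normalized counts per kilobase in NTG, against 1676 for AKR1B1 and 162 for SLC5A3. Its counts were 29933, 26413 and 28654 in NTG, 38188, 33849.6 and 38224 with siINO80#1 and 44420.5, 41911 and 42247 with siINO80#2. Each group lay wholly above the one before. The rise was 0.37 (SE 0.09, limma adjusted p = 0.00777) with siINO80#1 and 0.60 (SE 0.09, limma adjusted p = 0.000274) with siINO80#2, on the log2 scale. With quantile normalization the first of these was 0.21 and no longer passed (limma adjusted p = 0.0541).

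NFAT5, the transcription factor, rose by a similar amount. It had 4998, 5153 and 4681 normalized counts in NTG, 6932, 6586 and 6258 with siINO80#1 and 6753, 6720.2 and 8838 with siINO80#2. All libraries with either siRNA were above all NTG libraries, and the ranges of the siRNAs overlapped. The rise over NTG was 0.41 (SE 0.10, limma adjusted p = 0.00875) and 0.58 (SE 0.10, limma adjusted p = 0.000802). Of the 31-base words of NFAT5, 12.9% were shared with other genes, mostly with 1 overlapping noncoding RNA.

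AKR1B1, the aldose reductase, fell with siINO80#1 and lay near NTG with siINO80#2. It had 2048, 2366 and 2428 normalized counts in NTG, 1576, 1920.5 and 1758 with siINO80#1 and 2578, 2686 and 1969.8 with siINO80#2. The siINO80#1 libraries were below all NTG libraries and the siINO80#2 libraries lay on both sides of them. It fell by 0.38 (SE 0.12) with siINO80#1 (limma adjusted p = 0.0290), a call that was lost without siINO80#1 library A, NTG library B, NTG library C or siINO80#1 library C (limma adjusted p = 0.106, 0.0859, 0.101 and 0.0686). The log2 difference with siINO80#2 was 0.07 (95% interval -0.20 to 0.34, limma adjusted p = 0.651). Of the 31-base words of AKR1B1, 20.6% also occurred in other genes, most of them its pseudogenes, so its counts are less certain.

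SLC6A12, which carries betaine and GABA, was the member that varied most between replicates. It had 526, 639.5 and 1059 normalized counts in NTG, 491, 413 and 657 with siINO80#1 and 512, 568 and 805 with siINO80#2. The C library was the highest in every group and the groups overlapped. The log2 difference from NTG was -0.47 (95% interval -1.05 to 0.10, limma adjusted p = 0.172) with siINO80#1 and -0.20 (-0.78 to 0.37, limma adjusted p = 0.535) with siINO80#2. Neither passed the test, and the intervals include a fall by more than a log2 of 0.5. Within each letter SLC6A12 was lower with siINO80#1 than with NTG, and it passed there with the letter as a block (limma adjusted p = 0.0104), a fit in which 45.1% of all genes passed.

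Apart from SLC5A3, 3 of 5 members rose with siINO80#1 and 1 of 5 fell, where 20.7% of the 14034 genes tested rose and 20.8% fell. With siINO80#2, 3 of 5 rose and none fell, against 26.6% and 28.4% of all genes. With the letter as a block, 5 of 5 passed with siINO80#1 and 3 of 5 with siINO80#2, where 45.1% and 57.9% of all genes passed. The median log2 difference of these 5 genes was 0.37 and 0.58, beside a median of 0.00 over all genes tested in both comparisons. Both comparisons used the same NTG libraries. Between the siRNAs themselves, 22.1% of genes tested passed in either direction, from which nothing is read here since that contrast chose SLC5A3.

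**Figure D2:**
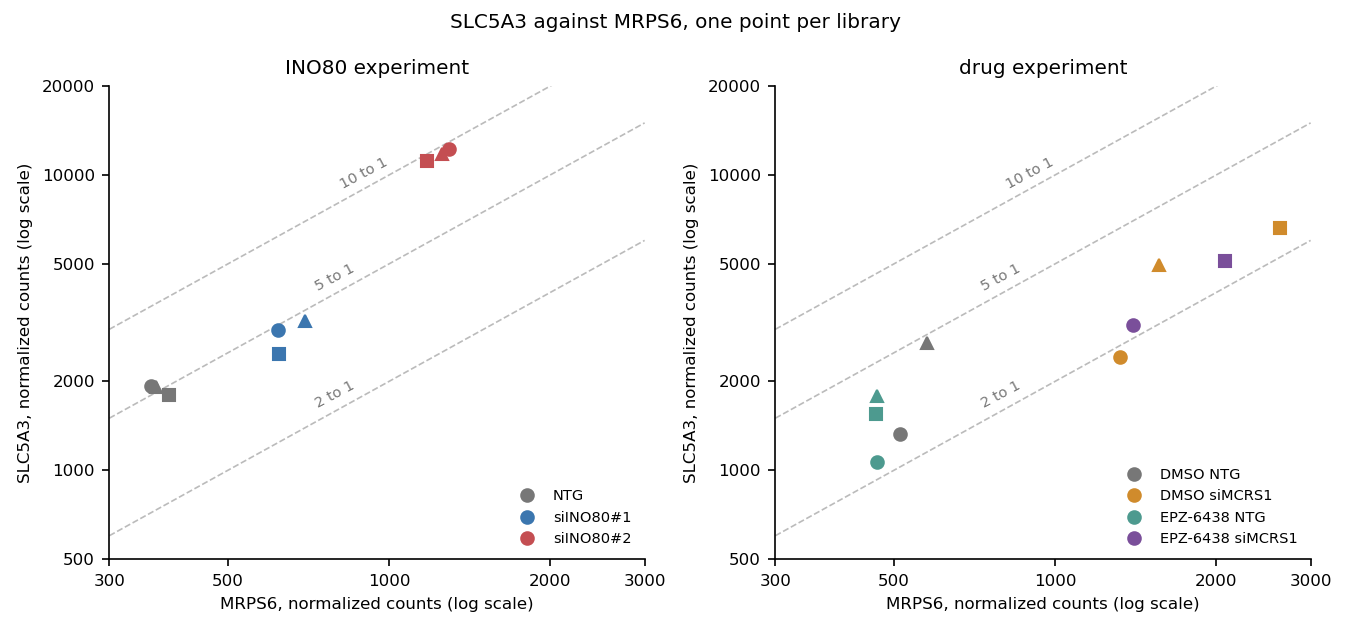
Normalized counts of SLC5A3 against those of MRPS6, both on log scales, with 1 point per library and dashed lines at 2, 5 and 10 counts of SLC5A3 for each count of MRPS6. The siINO80#2 libraries lie near the line of 10 to 1, at 9.34 to 9.49, and the NTG and siINO80#1 libraries of that experiment near 5 to 1. In the drug experiment the NTG libraries lie between 2.29 and 4.69 and the siMCRS1 libraries between 1.83 and 3.18.

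Depletion of MCRS1 gave measurements of SLC5A3 that did not enter the choice of the gene. In DMSO, SLC5A3 had 1329.9 and 2699.8 normalized counts in NTG libraries 1 and 3, and 2412, 6628 and 4967 in siMCRS1 libraries 1, 2 and 3. In EPZ-6438, it had 1066, 1554 and 1784 in NTG libraries 1, 2 and 3, and 3103 and 5113 in siMCRS1 libraries A and B. In DMSO the lowest siMCRS1 library lay below the higher NTG library, and in EPZ-6438 the groups were apart. Between libraries of the same number, reading A and B as 1 and 2, SLC5A3 was higher with siMCRS1 in every pair. The log2 differences were 0.86 and 0.88 in DMSO and 1.54 and 1.72 in EPZ-6438, in a pairing chosen after seeing the data. On the log2 scale SLC5A3 rose by 1.18 (SE 0.42, limma adjusted p = 0.0382) in DMSO and by 1.47 (SE 0.42, limma adjusted p = 0.0123) in EPZ-6438. The rise in DMSO did not pass without NTG library 1 (0.67, limma adjusted p = 0.322), siMCRS1 library 2 (0.87, limma adjusted p = 0.131) or siMCRS1 library 3 (1.08, limma adjusted p = 0.0934). The rise in EPZ-6438 did not pass without siMCRS1 library B (1.11, limma adjusted p = 0.122).

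In order of their means, SLC5A3 was at 1468 in EPZ-6438 NTG, 2015 in DMSO NTG, 4108 in EPZ-6438 siMCRS1 and 4669 in DMSO siMCRS1. The 2 NTG groups overlapped each other, as did the 2 siMCRS1 groups. Levels are not compared between the experiments, which were scaled separately.

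MRPS6 rose with siMCRS1 in both treatments. It had 512 and 575 normalized counts in DMSO NTG, 1321, 2629 and 1564 in DMSO siMCRS1, 464, 462 and 465 in EPZ-6438 NTG, and 1398 and 2075 in EPZ-6438 siMCRS1. All siMCRS1 libraries were above all NTG libraries. The rise was 1.69 (SE 0.25, limma adjusted p = 0.000367) in DMSO and 1.87 (SE 0.25, limma adjusted p = 0.000140) in EPZ-6438. SLC5A3 had 2.60 and 4.69 counts for each count of MRPS6 in the DMSO NTG libraries and 1.83 to 3.18 with siMCRS1. In EPZ-6438 the ratio was 2.29 to 3.84 with NTG and 2.22 to 2.46 with siMCRS1, so the ranges overlapped in both treatments. Between libraries of the same number, paired as above, the ratio was lower with siMCRS1 in every pair. It was 1.83 against 2.60 and 3.18 against 4.69 in DMSO, and 2.22 against 2.29 and 2.46 against 3.36 in EPZ-6438. The difference between the rises of MRPS6 and SLC5A3 was not tested.

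**Figure D3:**
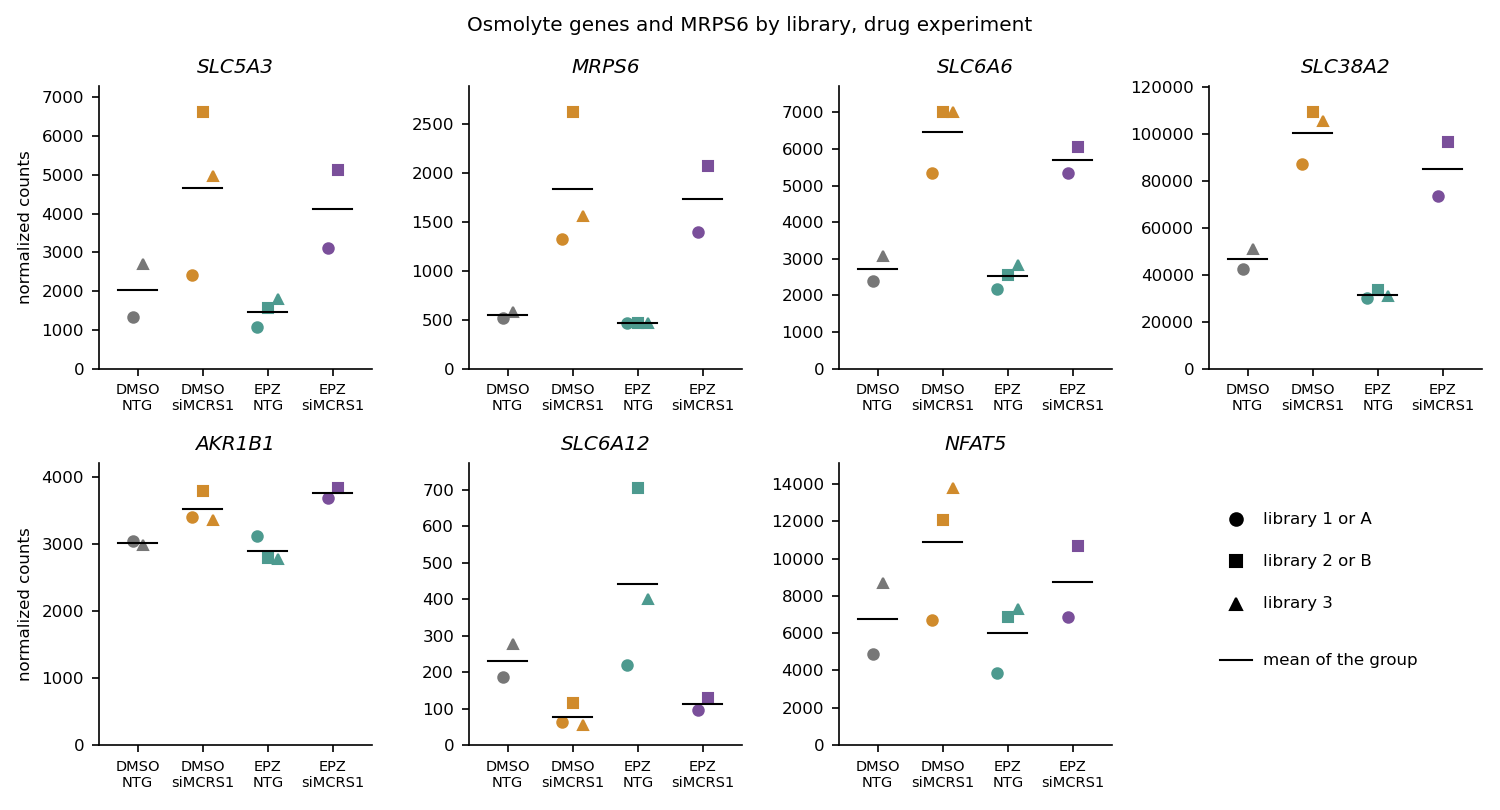
Normalized counts (axes from 0) of the 6 osmolyte genes and MRPS6 in each library of the drug experiment, with the mean of each group as a bar. SLC6A6, SLC38A2 and MRPS6 are higher and SLC6A12 is lower in all siMCRS1 libraries than in the NTG libraries of the same treatment. Library 1 or A is the lowest for SLC5A3, NFAT5, SLC6A6 and SLC38A2 in every group.

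The taurine transporter SLC6A6 rose in both treatments. Its normalized counts were 2382 and 3075 in DMSO NTG, 5345, 6998 and 7019 in DMSO siMCRS1, 2175, 2543 and 2828 in EPZ-6438 NTG, and 5342 and 6065 in EPZ-6438 siMCRS1. The lowest siMCRS1 library was well above the highest NTG library. The rise was 1.24 (SE 0.16, limma adjusted p = 0.000173) in DMSO and 1.19 (SE 0.16, limma adjusted p = 0.000152) in EPZ-6438.

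The amino acid carrier SLC38A2 rose alongside it. It had 42567 and 50702 normalized counts in DMSO NTG and 86908, 109406 and 105276 in DMSO siMCRS1. In EPZ-6438 it had 29931.5, 33325 and 31062 with NTG and 73294 and 96497 with siMCRS1. Both pairs of groups were far apart, and the EPZ-6438 NTG libraries also lay below the DMSO NTG libraries. With siMCRS1 SLC38A2 rose by 1.11 (SE 0.15, limma adjusted p = 0.000244) in DMSO and by 1.42 (SE 0.15, limma adjusted p = 3.83e-05) in EPZ-6438.

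The betaine/GABA transporter SLC6A12 went the other way. It had 186 and 277 normalized counts in DMSO NTG and 62.3, 115 and 55.9 in DMSO siMCRS1, and in EPZ-6438 it had 219.8, 704 and 401 with NTG and 96.0 and 129 with siMCRS1. All siMCRS1 libraries were below all NTG libraries. It fell by 1.61 (SE 0.44, limma adjusted p = 0.0115) in DMSO and by 1.82 (SE 0.44, limma adjusted p = 0.00510) in EPZ-6438. The fall in DMSO did not pass without NTG library 3 (-1.32, limma adjusted p = 0.0891) or with quantile normalization (-1.25, limma adjusted p = 0.0536).

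AKR1B1 changed little. It had 3051 and 2982 normalized counts in DMSO NTG, 3398, 3789 and 3366 in DMSO siMCRS1, 3125, 2791 and 2781 in EPZ-6438 NTG, and 3689 and 3834 in EPZ-6438 siMCRS1. The siMCRS1 libraries were above the NTG libraries in both treatments. The log2 difference was 0.22 (95% interval 0.01 to 0.43, limma adjusted p = 0.0802) in DMSO, and AKR1B1 rose by 0.38 (SE 0.10, limma adjusted p = 0.00653) in EPZ-6438. That rise was 0.14 with libraries scaled to equal totals (limma adjusted p = 0.237), where the DMSO difference was -0.02, and it did not pass without siMCRS1 library B (limma adjusted p = 0.0601).

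NFAT5 did not pass the test in either treatment, and passed in both once the number of the library was taken as a block. It had 4892 and 8683 normalized counts in DMSO NTG, 6728, 12098 and 13785 in DMSO siMCRS1, 3875, 6869.8 and 7284 in EPZ-6438 NTG, and 6867 and 10669 in EPZ-6438 siMCRS1. The groups overlapped in both treatments. The log2 difference was 0.67 (95% interval -0.13 to 1.48, limma adjusted p = 0.153) in DMSO and 0.56 (-0.24 to 1.37, limma adjusted p = 0.217) in EPZ-6438, and without siMCRS1 library 1 it was 0.99 in DMSO and passed (limma adjusted p = 0.0345). Between libraries of the same number, reading A and B as 1 and 2, NFAT5 was higher with siMCRS1 in all 4 pairs, by 0.46 and 0.67 in DMSO and by 0.83 and 0.63 in EPZ-6438. With the number as a block, chosen after seeing the data, it rose by 0.57 and 0.74 (limma adjusted p = 0.000239 and 4.38e-05), in fits where 57.4% and 63.4% of all genes passed.

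Of the 6 members, 3 rose with siMCRS1 in DMSO and 1 fell, where 23.1% of the 14312 genes tested rose and 24.6% fell. In EPZ-6438, 4 rose and 1 fell, against 26.8% and 26.9% of all genes. The median log2 difference was 0.89 and 0.88, beside 0.00 and 0.01 over all genes. The direction of these shares depends on the scaling. When libraries were brought to equal totals, the median gene shifted by -0.23 with siMCRS1 in both treatments, and the share of calls that were higher went from 48.4% to 27.0% in DMSO and from 49.9% to 30.1% in EPZ-6438. With siINO80#1 and siINO80#2 the same scaling shifted the median gene by -0.08 and -0.11, and took the higher share from 49.9% to 39.8% and from 48.3% to 38.7%. On that scale SLC6A6, SLC38A2 and SLC6A12 kept their calls with siMCRS1 in both treatments, whereas SLC5A3 in DMSO was 0.95 higher and did not pass (limma adjusted p = 0.0827).

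**Figure D4:**
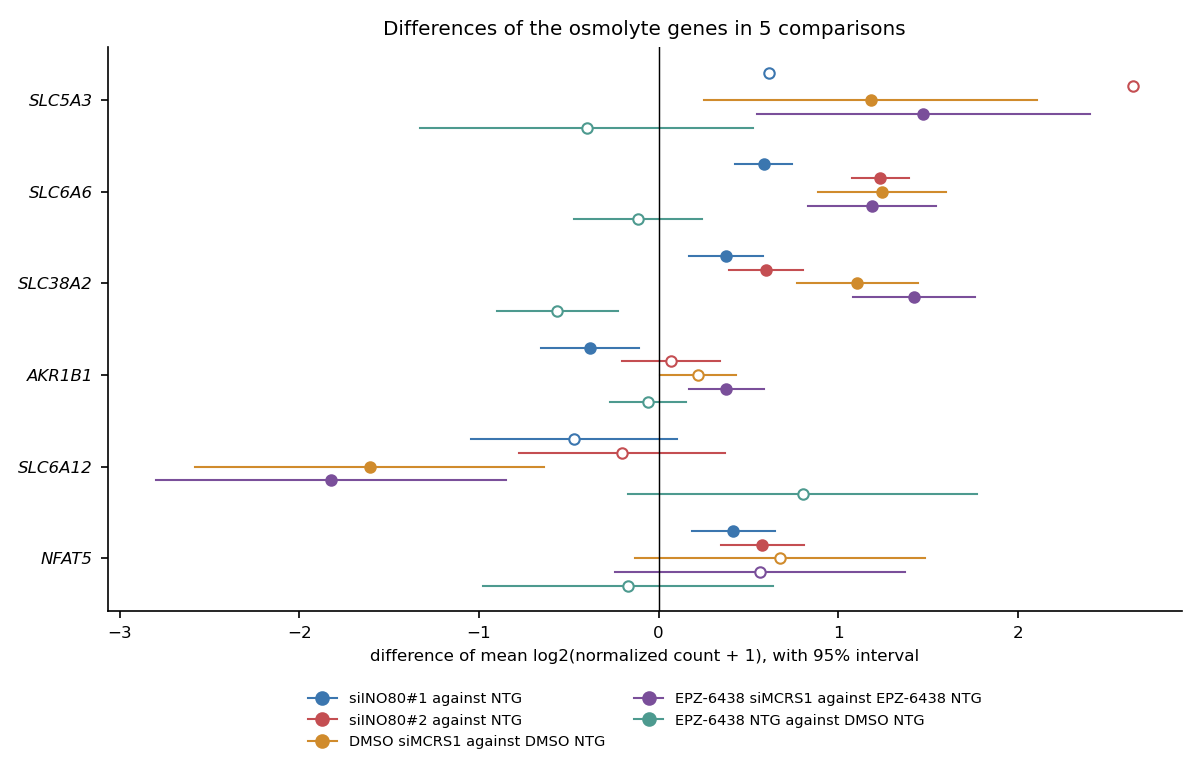
Difference of mean log2(normalized count + 1) of the 6 osmolyte genes in 5 comparisons, with limma's 95% interval; filled points passed an adjusted p of 0.05 and open points did not. The open points of SLC5A3 for siINO80#1 (0.61) and siINO80#2 (2.64) carry no interval because that experiment chose the gene; SLC6A6 and SLC38A2 are higher and SLC6A12 is at or below 0 in all 4 siRNA comparisons.

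EPZ-6438 alone gave no member that passed with limma without a block, and the other fits called 0 to 2 of 6. In NTG cells 0 of 6 members passed in that limma fit, where 0.384% of genes did. There SLC38A2 was the member with an unadjusted p under 0.05. Its log2 difference was -0.56 (95% interval -0.90 to -0.23, unadjusted p = 0.00365, limma adjusted p = 0.115), with all 3 EPZ-6438 NTG libraries below both DMSO NTG libraries. edgeR called 0 of 6 members, where it called 0.475% of all genes, and DESeq2 called 1 of 6, SLC38A2 (adjusted p = 0.0127), where it called 5.04%. With the number as a block limma called 2 of 6, SLC38A2 (-0.63, limma adjusted p = 0.0090) and NFAT5 (-0.27, limma adjusted p = 0.0438), where 12.4% of all genes passed. SLC5A3 differed by -0.40 (95% interval -1.33 to 0.53), an interval that spans falls and rises.

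In siMCRS1 cells 0 of 6 members passed for EPZ-6438 against DMSO with limma, edgeR and DESeq2, none with an unadjusted p under 0.05, and 0.0908% of genes passed with limma. The test of whether siMCRS1 acted differently in the 2 treatments gave 0 of 6 members in all 3 tools, none with an unadjusted p under 0.05. Over all genes that test gave 0 of 14312, or 0%, with limma, 336 genes at an unadjusted p under 0.05, 0 with edgeR and 5 with DESeq2. For SLC5A3 the difference between the siMCRS1 effects was 0.29 (95% interval -1.02 to 1.60), which leaves room for a large difference in either direction.

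Libraries numbered 1, or lettered A in the EPZ-6438 siMCRS1 group, were the lowest of their group for SLC5A3 and NFAT5, the members with the longest transcripts. They were also the lowest of every group for SLC6A6 and SLC38A2, whose transcripts have 6504 and 4795 bases. For MRPS6, with 931 bases, they were the lowest except in EPZ-6438 NTG. AKR1B1 and SLC6A12 did not follow this in every group. The same libraries were low for long transcripts as a class. The median deviation from the group mean of transcripts of at least 8000 bases (1131 genes), less that of transcripts under 2000 bases (3471 genes), was -0.15 in DMSO NTG library 1, -0.22 in DMSO siMCRS1 library 1, -0.25 in EPZ-6438 NTG library 1 and -0.08 in EPZ-6438 siMCRS1 library A. It was between 0.03 and 0.23 in the other 6 libraries. In DMSO NTG and EPZ-6438 siMCRS1, with 2 libraries each, the deviations of the pair are equal and opposite by arithmetic. SLC5A3 was 0.36 to 0.83 below its group mean in those 4 libraries on the log2 scale, and NFAT5 was 0.32 to 0.63 below. The part of transcript length in these deviations was not tested. After the trend with transcript length was taken out of each library, AKR1B1 passed with siMCRS1 in DMSO (0.46, limma adjusted p = 0.00236) and with siINO80#2 (0.30, limma adjusted p = 0.0204), and no longer with siINO80#1 (-0.20, limma adjusted p = 0.120). With that trend removed, the untested differences of SLC5A3 from NTG were 0.46 with siINO80#1 and 2.44 with siINO80#2, in place of 0.61 and 2.64. Those of MRPS6 were 1.00 and 1.98, in place of 0.80 and 1.74. The gap between SLC5A3 and MRPS6 with siINO80#2 was thus narrower, while that with siINO80#1, where MRPS6 differed more from NTG, was wider.

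**Figure D5:**
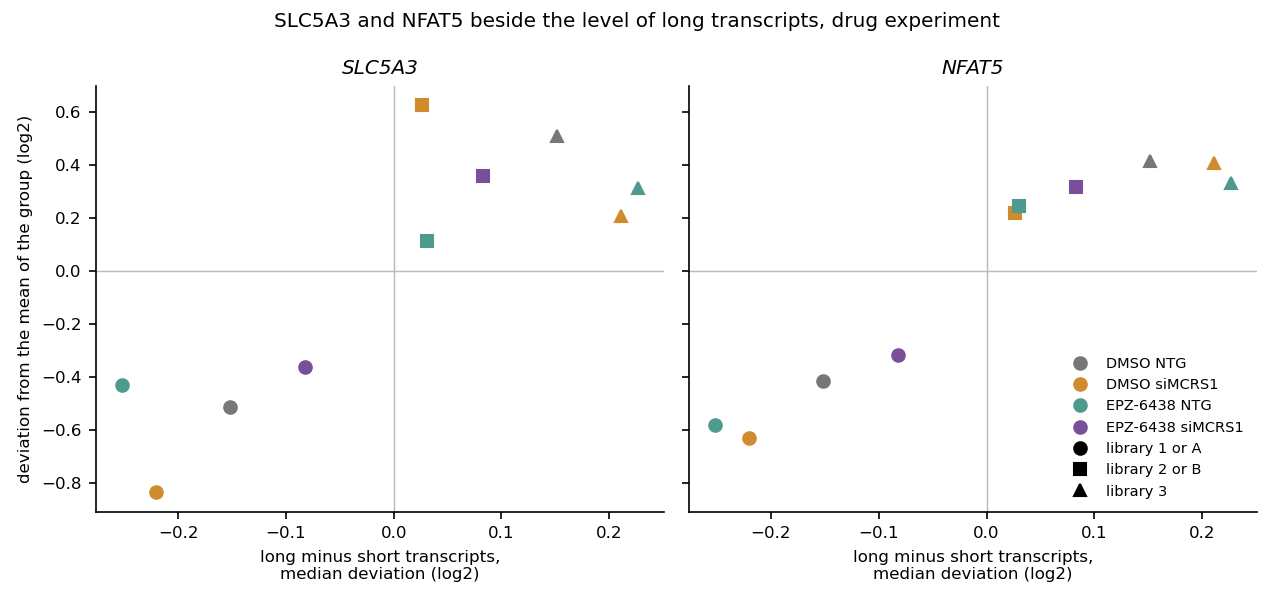
Deviation of SLC5A3 (left) and NFAT5 (right) from the mean of their group, on the log2 scale, against the deviation of long minus short transcripts in the same library of the drug experiment. The 4 libraries numbered 1 or A are below 0 on both axes and the other 6 are above 0 on both. In DMSO NTG and EPZ-6438 siMCRS1, with 2 libraries each, 1 point mirrors the other by arithmetic.

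The other genes of each osmolyte branch were taken from lists of known function, and their differences are on the log2 scale, with both INO80 siRNAs first, then siMCRS1 under DMSO and under EPZ-6438. Of all genes tested, 20.7%, 26.6%, 23.1% and 26.8% rose in these comparisons and 20.8%, 28.4%, 24.6% and 26.9% fell. In inositol supply, 4 of 7 genes fell with siINO80#1 and 1 rose, and with siINO80#2 2 fell and 1 rose. With siMCRS1 3 fell and 1 rose in DMSO, and 4 fell and none rose in EPZ-6438. SLC5A11, a second sodium/myo-inositol cotransporter, fell by 2.01, 1.01, 1.26 and 0.87 in these 4 comparisons, and IMPA2, an inositol monophosphatase, fell by 0.72, 1.35, 1.06 and 1.12. ISYNA1, which makes inositol phosphate from glucose 6-phosphate, fell by 0.53 with siINO80#1 and by 1.24 and 1.02 with siMCRS1, and was at -0.28 with siINO80#2, which did not pass. SLC2A13, the proton/myo-inositol cotransporter, rose by 0.47, 0.30 and 0.49 and was at 0.25 with siMCRS1 in EPZ-6438, which did not pass.

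Of the genes that handle betaine and glycerophosphocholine, 6 of 10 fell with siINO80#1, 8 with siINO80#2, and 6 and 7 with siMCRS1 in DMSO and EPZ-6438, while 2, 2, 1 and 1 rose. BHMT, which passes a methyl group from betaine to homocysteine, fell by 3.67 and 4.11 with the INO80 siRNAs and by 2.70 in both treatments with siMCRS1. DMGDH and SARDH, the next steps of choline breakdown in mitochondria, fell by 1.73 and 1.06 with siINO80#1, by 1.57 and 1.91 with siINO80#2, and by 1.59 and 1.46 with siMCRS1 in DMSO. GPCPD1, which splits glycerophosphocholine, rose in all 4 comparisons, by 0.61, 0.41, 0.89 and 1.15. The median of the list was -0.48, -0.62, -0.64 and -0.71.

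In taurine supply, 2 of 5 tested genes rose and 2 fell in each comparison, except that 1 fell with siMCRS1 in EPZ-6438. CDO1 and CSAD, the enzymes that make taurine from cysteine, fell by 1.53 and 0.50 with siINO80#1, by 2.07 and 0.81 with siINO80#2 and by 1.33 and 1.16 with siMCRS1 in DMSO. In EPZ-6438 CSAD fell by 1.31, and CDO1 was at -0.76 and did not pass. SLC16A6, a monocarboxylate transporter family member reported to export taurine, rose by 1.58, 1.19, 1.94 and 1.88.

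In the polyol pathway and among relatives of AKR1B1, 4 of 5 genes fell with siINO80#1 and 3 of 5 in each of the other comparisons, and none rose. SORD, which turns sorbitol to fructose, fell by 0.39, 0.29, 0.61 and 0.72, and KHK, the ketohexokinase that acts on fructose next, fell by 0.72, 1.53, 1.84 and 2.18. AKR1B10 and AKR1B15, near relatives of AKR1B1, fell by 1.20 and 0.98 with siINO80#1 and passed in none of the other 3 comparisons.

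The relatives of SLC38A2 differed among themselves. Among 9 SLC38 relatives and other amino acid transporters, 6 fell and none rose with siINO80#1, and 7 fell and 1 rose with siINO80#2. With siMCRS1 3 rose and 3 fell in DMSO, and 4 rose and 2 fell in EPZ-6438. SLC38A1, a close relative, was at 0.19 with siINO80#1, which did not pass, and rose by 0.64, 0.95 and 1.27 in the others. The liver carriers SLC38A3 and SLC38A4 fell by 1.15 and 1.17 with siINO80#1 and by 1.94 and 1.72 with siINO80#2. SLC7A11, the cystine/glutamate exchanger, fell by 0.46 and 0.69 with the INO80 siRNAs and rose by 1.27 and 1.79 with siMCRS1. Of 4 tested relatives of the taurine and betaine transporters, 1 rose and 1 fell with siINO80#1, none rose and 2 fell with siINO80#2, and with siMCRS1 1 rose in DMSO and 1 rose and 1 fell in EPZ-6438. SLC6A14, a transporter of neutral and basic amino acids, rose by 1.33 with siINO80#1 and passed in none of the others. SLC6A9, a glycine transporter, fell by 1.22 and 1.00 with the INO80 siRNAs and by 0.84 with siMCRS1 in EPZ-6438, and SLC6A8, the creatine transporter, rose by 1.11 and 0.87 with siMCRS1.

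Of 12 other genes described as NFAT5 targets, 6 were above the filter. With siINO80#1 3 of 6 rose and none fell, with siINO80#2 2 rose and 2 fell, and with siMCRS1 1 rose in DMSO and 2 in EPZ-6438 with none falling. S100A4, a calcium-binding protein, rose in all 4, by 0.90, 1.75, 1.27 and 1.48, and HSPA1A, a heat shock protein, rose by 1.01 and 1.03 with the INO80 siRNAs. SGK1, a kinase that regulates sodium transport, fell by 0.89 with siINO80#2 and rose by 0.50 with siMCRS1 in EPZ-6438. Of the NFAT family 2 other genes could be tested. NFATC2 fell in all 4 comparisons, by 0.50, 1.36, 2.33 and 2.93, and NFATC3 rose by 0.42 with siINO80#1 and by 0.52 and 0.51 with siMCRS1.

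Of 9 tested genes near SLC5A3 on chromosome 21, none but MRPS6 rose in any of these 4 comparisons, while 4 fell with siINO80#1, 5 with siINO80#2, and 3 and 2 with siMCRS1 in DMSO and EPZ-6438. CRYZL1 fell by 0.57, 0.69, 0.78 and 0.74, and SON, an RNA splicing cofactor, fell by 0.44 with siINO80#2 and by 1.45 and 1.59 with siMCRS1. RCAN1, a calcineurin regulator, fell by 0.76 and 0.53 with the INO80 siRNAs and was at 0.01 and 0.27 with siMCRS1, which did not pass. Another 5 listed symbols had no row in the tables. Of these, SMIM11 and ATP5PO are newer names of SMIM11A and ATP5O, which are listed and had rows. LINC00310, SMIM34A and FAM243A had none, so that the list is not complete.

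Genes with a pattern most like SLC5A3 were ranked by Pearson's r of log2 values over the libraries of an experiment, as a description in which libraries of a group share their treatment. Over 9 libraries of the INO80 experiment and 11582 genes, the leading genes included ACVR2B (r = 0.993), PTCHD4 (0.989), IFI6 (0.988) and DTNB (0.987). None of these 4 differed as much from NTG as SLC5A3 did, and ACVR2B averaged 759.8 normalized counts in NTG, 896 with siINO80#1 and 1466 with siINO80#2, and PTCHD4 averaged 547, 657 and 1375. MRPS6 ranked 49 (0.965) and SLC6A6 ranked 89 (0.954). Over 10 libraries of the drug experiment and 11897 genes, the leading genes were PICALM (0.985), POLK (0.981), SAMD8 (0.979), ZNF507 (0.978) and LRRFIP1 (0.977). There SLC6A6 ranked 257 (0.930), NFAT5 356 (0.920), MRPS6 446 (0.913) and SLC38A2 529 (0.906), and no leading gene named for one experiment was among those named for the other.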

How the data were processed

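Stranded mRNA libraries (Kapa kit) of HepG2 cells were analysed from 1 table per experiment of normalized counts. The authors deposited gene-level values, a never-negative signal scaled by 1 size factor per library. The submitters' processing notes name kallisto, DESeq2 and GRCh38, with no versions. The annotation and any use of strand in counting were not given in the sources used here. Dividing by the step of each library gave whole numbers for 100% of values (tolerance 0.001), called reads here, though rounded estimates would look the same. The floor of 3 reads covers counting error only, and the intervals cover the spread between these libraries. These libraries are not described in the methods of the paper.

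Members and gene lists were chosen with earlier results of these data known. Log2(value + 1) of genes with a mean of at least 10 was fitted with limma 3.58.1 in R 4.3.3 (trended eBayes, 1 fit per experiment over its groups, Benjamini-Hochberg over all genes tested, threshold 0.05). On this scale fold changes of low genes are understated. The 2 tables were scaled separately and compared only within themselves. Alternatives were other pseudocounts, filters and scalings, edgeR 4.0.16 and DESeq2 1.42.0 on recovered reads, each library left out, and the replicate letter or number as a block. Deviations of the 3 same-letter pairs of NTG and siINO80#1 correlated at 0.14 to 0.26, so the blocked value is given beside a call it changes there. Named genes were the members, MRPS6, INO80, MCRS1, up to 4 called genes per list with the largest differences, and the 5 most correlated with SLC5A3, of which 1 is not reported here; further list genes named for their role were picked after their values were seen. Promoters came from RefSeq, where MRPS6 and 3 members matched, and SLC6A6, SLC6A12 and NFAT5 did not. The script was tested on simulated data. Drug columns carry numbers where labels carry letters, so only EPZ-6438 siMCRS1 columns were tied to single samples.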

Additional observations from a re-analysis of the deposited data

How the results depend on the processing

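Of 1183 recomputed gene differences for the 6 members and MRPS6, 1146 kept their side of the threshold or, if untested, moved by less than the spread. Some of those 1146 changed direction while called in neither fit, such as AKR1B1 with siMCRS1 in DMSO, from 0.22 to -0.02 with equal totals. Another 20 lost a call, 9 gained one, 8 untested values moved and none reversed while called. With quantile normalization 2 of 6 members passed with siMCRS1 in DMSO in place of 4, where 6464 of 14312 genes passed in place of 6830. Leaving out 1 library of the INO80 experiment at a time gave 3 to 4 of 5 members called with siINO80#1. In those fits 4719 of 14053 to 6920 of 13980 genes passed. With siINO80#2 3 of 5 members were called each time, where 6841 of 14029 to 7721 of 14025 genes passed. In the drug experiment such counts are not given, since some of these fits leave 1 library in a group. For EPZ-6438 against DMSO in NTG cells, where limma called 0 of 6 members and 55 of 14312 genes, DESeq2 called 1 of 6 and 721 genes. SLC5A3 with siMCRS1 in DMSO also did not pass without a filter (limma adjusted p = 0.063), with quantile normalization (0.071) or without a trend (0.0766). AKR1B1 with siINO80#1 did not pass without a trend (0.0595). The cause of these changes was not tested. Over all alternatives limma, edgeR and DESeq2 adjusted p ran from 0.00117 to 0.322 for SLC5A3 with siMCRS1 in DMSO and from 7.26e-05 to 0.122 in EPZ-6438, from 0.000514 to 0.0891 for SLC6A12 with siMCRS1 in DMSO, from 0.0042 to 0.12 for AKR1B1 with siINO80#1 and from 0.000174 to 0.237 with siMCRS1 in EPZ-6438, from 0.000239 to 0.682 for NFAT5 with siMCRS1 in DMSO, and from 0.009 to 0.456 for SLC38A2 with EPZ-6438 in NTG cells. In EPZ-6438 siMCRS1 or DMSO NTG with a library left out, the lone library is assumed to vary like the other groups.

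Same-lettered libraries of the INO80 experiment had correlations of deviations of -0.08 to 0.26 (9 pairs, mean 0.10), against a mean of -0.05 for the 18 other pairs. In both experiments deviations sum to 0 within a group, so matched and other pairs are not independent. Correlations with the 2 libraries of a drug group of 2 are mirrored. All 3 pairs of NTG and siINO80#1 were above 0.1 and none of NTG and siINO80#2 was. With the letter as a replicate block, 5 of 5 members passed with siINO80#1, SLC6A12 gaining a call (-0.47, limma adjusted p = 0.0104), where 6327 of 14034 genes passed in place of 5833, and 3 of 5 with siINO80#2, where 8127 passed in place of 7725. In the drug experiment same-numbered libraries had correlations of -0.02 to 0.30 (12 pairs, mean 0.20), against a mean of -0.10 for 25 other pairs. With that number as a replicate block, chosen after seeing the data, 5 of 6 members passed with siMCRS1 in DMSO, where 8219 of 14312 genes did, and 6 of 6 in EPZ-6438, where 9076 did, NFAT5 gaining a call in both (0.57 and 0.74, limma adjusted p = 0.000239 and 4.38e-05), and 2 of 6 passed for EPZ-6438 in NTG cells, SLC38A2 (-0.63, limma adjusted p = 0.0090) and NFAT5 (-0.27, limma adjusted p = 0.0438), where 1779 genes passed in place of 55. The trend on transcript length was also removed after seeing the data.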

Other observations

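Of 17 tested genes that regulate cell volume through ions, 9 rose and 4 fell with siINO80#1, where 20.7% of all genes rose and 20.8% fell, and 10 rose and 2 fell with siINO80#2, against 26.6% and 28.4%. With siMCRS1 6 rose and 6 fell in DMSO, against 23.1% and 24.6% of all genes, and 7 rose and 8 fell in EPZ-6438, against 26.8% and 26.9%. Of the LRRC8 subunits, which form the volume-regulated anion channel, LRRC8A rose on the log2 scale by 1.09, 1.31, 1.56 and 1.55 and LRRC8B by 1.44, 1.51, 1.32 and 1.25, while LRRC8D fell by 1.00, 1.07, 0.64 and 0.52. LRRC8E rose by 0.57, 0.66, 0.57 and 0.40, and LRRC8C, at 15.8 normalized counts in NTG of the INO80 experiment, was at 0.62 with siINO80#1, which did not pass, and rose by 1.10, 1.52 and 1.61 in the others. SLC12A2, the sodium-potassium-chloride cotransporter that loads cells with salt, rose by 0.56, 1.16, 0.85 and 1.35. The potassium-chloride cotransporters SLC12A4 and SLC12A7, which release salt, fell by 0.60 and 0.74 with siMCRS1 in DMSO and by 0.78 and 0.85 in EPZ-6438, and passed with neither INO80 siRNA. Among the WNK kinases that sense chloride, WNK1 rose in all 4 comparisons, by 0.91, 0.80, 0.74 and 0.68, and WNK3 fell in all 4, by 1.53, 1.84, 2.36 and 1.66. WNK4 rose by 1.26 and 1.38 with the INO80 siRNAs and fell by 1.16 with siMCRS1 in EPZ-6438. These genes were named after their values were seen, and the medians of the list, 0.49, 0.60, -0.02 and -0.08, stood beside medians of 0.00 to 0.01 over all genes tested.

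Of the leukocyte markers, LYZ (lysozyme) averaged 38469.8 normalized counts in NTG of the INO80 experiment, CD68, a lysosomal protein, 1123 and PTPRC 22.2. The 4 fibroblast or stellate markers summed to 247 to 277 normalized counts in NTG, 448 to 473 with siINO80#1 and 274 to 304 with siINO80#2. They summed to 345 to 366 in DMSO NTG and 555 to 903 in DMSO siMCRS1, and to 248 to 397 in EPZ-6438 NTG and 830.4 to 886 in EPZ-6438 siMCRS1. COL1A1, a collagen chain, rose with siMCRS1 by 1.25 in DMSO and by 2.91 in EPZ-6438, and fell by 0.63 with siINO80#2. The 4 endothelial markers summed to 176 to 340 over all libraries, and KDR was at 0 in all 10 libraries of the drug experiment. Their part in the results for the osmolyte genes was not tested.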
